A study of Mus musculus with 52 samples.

Results

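The genes described here are 10 genes of the Nrf2 antioxidant response and of metallothionein: Nfe2l2, which encodes the transcription factor Nrf2, the antioxidant genes Hmox1, Nqo1, Gclc, Gclm, Gsr, Txnrd1 and Srxn1, and the metallothionein genes Mt1 and Mt2. They were chosen by name as members of these pathways, and all 10 were found among the 24421 gene symbols that were counted. Their RNA was measured by RNA sequencing of Cilia-APEX-IMCD3 cells, a mouse line of the inner medullary collecting duct of the kidney. The line carries a peroxidase targeted to the cilium. The samples form 13 combinations of clone and state, each spoken of here as a clone, with 4 libraries from each.

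By the methods, all clones had been exposed to the cytosine base editor BE4-Gam and grown from single sorted cells. The label of non-ciliated control AB lacks the prefix BE that the other non-ciliated clones carry, and the sources used here do not explain it. Control clones had received a guide vector without target sequence, and mutant clones were homozygous for a missense allele of Wdr34 or Wdr60, the intermediate chains of the dynein-2 motor that carries cargo back along the cilium. A Wdr34 allele came with a further heterozygous missense change at the neighbouring residue and was not among the non-ciliated clones, and the Wdr60 clone carried a heterozygous synonymous change. Ciliated cells, starved of serum to grow cilia, comprised 4 control clones (D8, H12, A4 and G7) and 3 mutant clones (2 of Wdr34, named 1 and 3, and 1 of Wdr60). Non-ciliated cells comprised 4 control clones (AB, 1, 2 and 3) and 2 mutant clones (Wdr34 and Wdr60). The labels do not say which allele the ciliated Wdr34 clones 1 and 3 carry, nor whether any control clone was used in both states. They give medium with serum for every sample, whereas the methods state starvation for the ciliated cells, so cilia and serum cannot be told apart. The methods count 4 control and 3 mutant clones for the sequencing, whereas the names of the controls differ between the states. By that count clones recur in both states, the single Wdr60 clone among them, and the clones counted here are not all independent. The study places the sequencing of the non-ciliated cells before 1 Wdr34 mutant was obtained, and when the other ciliated clones were sequenced is not given in the sources used here. As both genes were edited at single bases, their RNA level is no check of the labels. The 4 libraries of a clone are technical replicates, so genotypes and states were compared over clones.

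Library totals ran from 14816218 to 28084979 counts. Levels are given as CPM, read counts brought to a common library size with the trimmed mean of M-values (TMM), as the mean ± SD of 4 libraries of a clone. Of 11 markers of collecting duct epithelium, the water channels Aqp2 and Aqp3 and the factor Gata3 had clone means of at most 0.0157, 1.06 and 2.86 CPM. The lowest clone means of Pax2, Pax8, Hoxb7, Cdh16, Krt8 and Krt18 lay between 26.8 and 154 CPM, while those of Epcam and Cdh1 were 2.89 and 4.27 CPM, both in non-ciliated control 2. Krt8 was low in 3 clones: 26.8 ± 2.33 CPM in ciliated control G7, 41.5 ± 3.80 in non-ciliated control 2 and 76.5 ± 4.22 in ciliated Wdr34 clone 3, against 375 to 939 in the other clones. The 3 libraries said here to stand apart were library 1 of ciliated control A4, of non-ciliated control AB and of non-ciliated Wdr60, whose highest correlations to another library of their own clone (Pearson r across genes, log2 CPM) were the lowest of all libraries, 0.992, 0.984 and 0.989. They were chosen after the values were seen, with no fixed threshold. The next was library 4 of G7 (0.993), and the lowest r of any pair within a clone, 0.980, was in ciliated Wdr60.

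Nrf2 is made continuously and, in unstressed cells, bound by Keap1, which passes it to a Cul3 ubiquitin ligase for destruction. When oxidants or electrophiles modify Keap1, Nrf2 accumulates, pairs with a small Maf protein and binds antioxidant response elements near genes for glutathione synthesis, thioredoxin recycling, quinone reduction and haem breakdown. Bach1 competes for such elements and is released by haem. Metallothioneins are small cysteine-rich proteins that bind zinc and copper, and their genes answer to the zinc-sensing factor Mtf1 through metal response elements and, in part, to oxidants and glucocorticoids. In the kidney, both systems are known from tubule cells under oxidant or metal load.

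Promoter sequences, taken as the 250 bases before the annotated start in RefSeq (GRCm38.p6), were matched for 7 of the 10 genes, and Hmox1, Gclc and Gsr were not matched. The cores TGACNNNGC and TGAGNNNGC, letters that antioxidant response elements share, were searched on both strands, and at least 1 of them was present in the windows of Gclm, Txnrd1, Srxn1, Mt2 and Nfe2l2. In all promoters of the table, 23% of 32851 windows held at least 1 of these cores. The cores are shown in capitals with 10 bases on each side, on the strand of the gene, since these are letters that Nrf2 is known to bind in other promoters. The windows of Nqo1 and Mt1 and the other 2 windows of Txnrd1 held none. The match in Gclm, the match in Txnrd1 and the first match in Srxn1 lie on the opposite strand and are read in reverse complement, and that in Txnrd1 lies before the second of 3 starts. Nfe2l2 is on the minus strand of its chromosome and the other genes shown are on the plus strand.
Gclm, chr3:122245413-122245441: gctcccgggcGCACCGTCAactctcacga
Txnrd1, chr10:82859104-82859132: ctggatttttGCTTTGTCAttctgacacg
Srxn1, chr2:152105356-152105384: tctactgagaGCCGACTCAtcctctctgg
Srxn1, chr2:152105469-152105497: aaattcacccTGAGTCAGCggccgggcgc
Nfe2l2, chr2:75704885-75704913: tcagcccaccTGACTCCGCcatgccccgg
Mt2, chr8:94172529-94172557: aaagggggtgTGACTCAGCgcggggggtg

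The metallothionein pair lies side by side on chromosome 8, Mt2 at chr8:94172618-94173567 and Mt1 at chr8:94178883-94180327, with 5315 bases and no other RefSeq gene between them. Cores of metal response elements, TGCACNC and TGCGCNC, were likewise searched on both strands and were present in 21.4% of all windows. The 250 bases before Mt2 held 3 matches (at 223 to 217, 128 to 122 and 50 to 44 bases before the start), beside the antioxidant core at 79 to 71, and those before Mt1 held 1 match (at 23 to 17). Beyond the metallothioneins, Gclm held 2 matches and Srxn1 held 1. The start used for Mt1 lies inside the annotated gene, which begins further upstream. Its window, chr8:94178839-94179088, thus lies mostly within the gene, and bases outside the window were not searched. The 2 windows are therefore not alike. Nothing is read from their numbers of matches or from the lack of an antioxidant core in that of Mt1. Both are shown because the genes differed sharply in level, with the matches in capitals.
Mt2, chr8:94172368-94172617, plus strand: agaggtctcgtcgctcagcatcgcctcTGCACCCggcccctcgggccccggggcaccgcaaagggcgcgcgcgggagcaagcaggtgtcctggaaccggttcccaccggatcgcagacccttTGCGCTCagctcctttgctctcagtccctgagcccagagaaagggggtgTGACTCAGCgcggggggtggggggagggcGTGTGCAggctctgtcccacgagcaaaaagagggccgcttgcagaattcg
Mt1, chr8:94179056-94179082, plus strand: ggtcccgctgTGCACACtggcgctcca
A match of these letters is a description of the window and was not tested as a binding site.

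**Figure D1:**
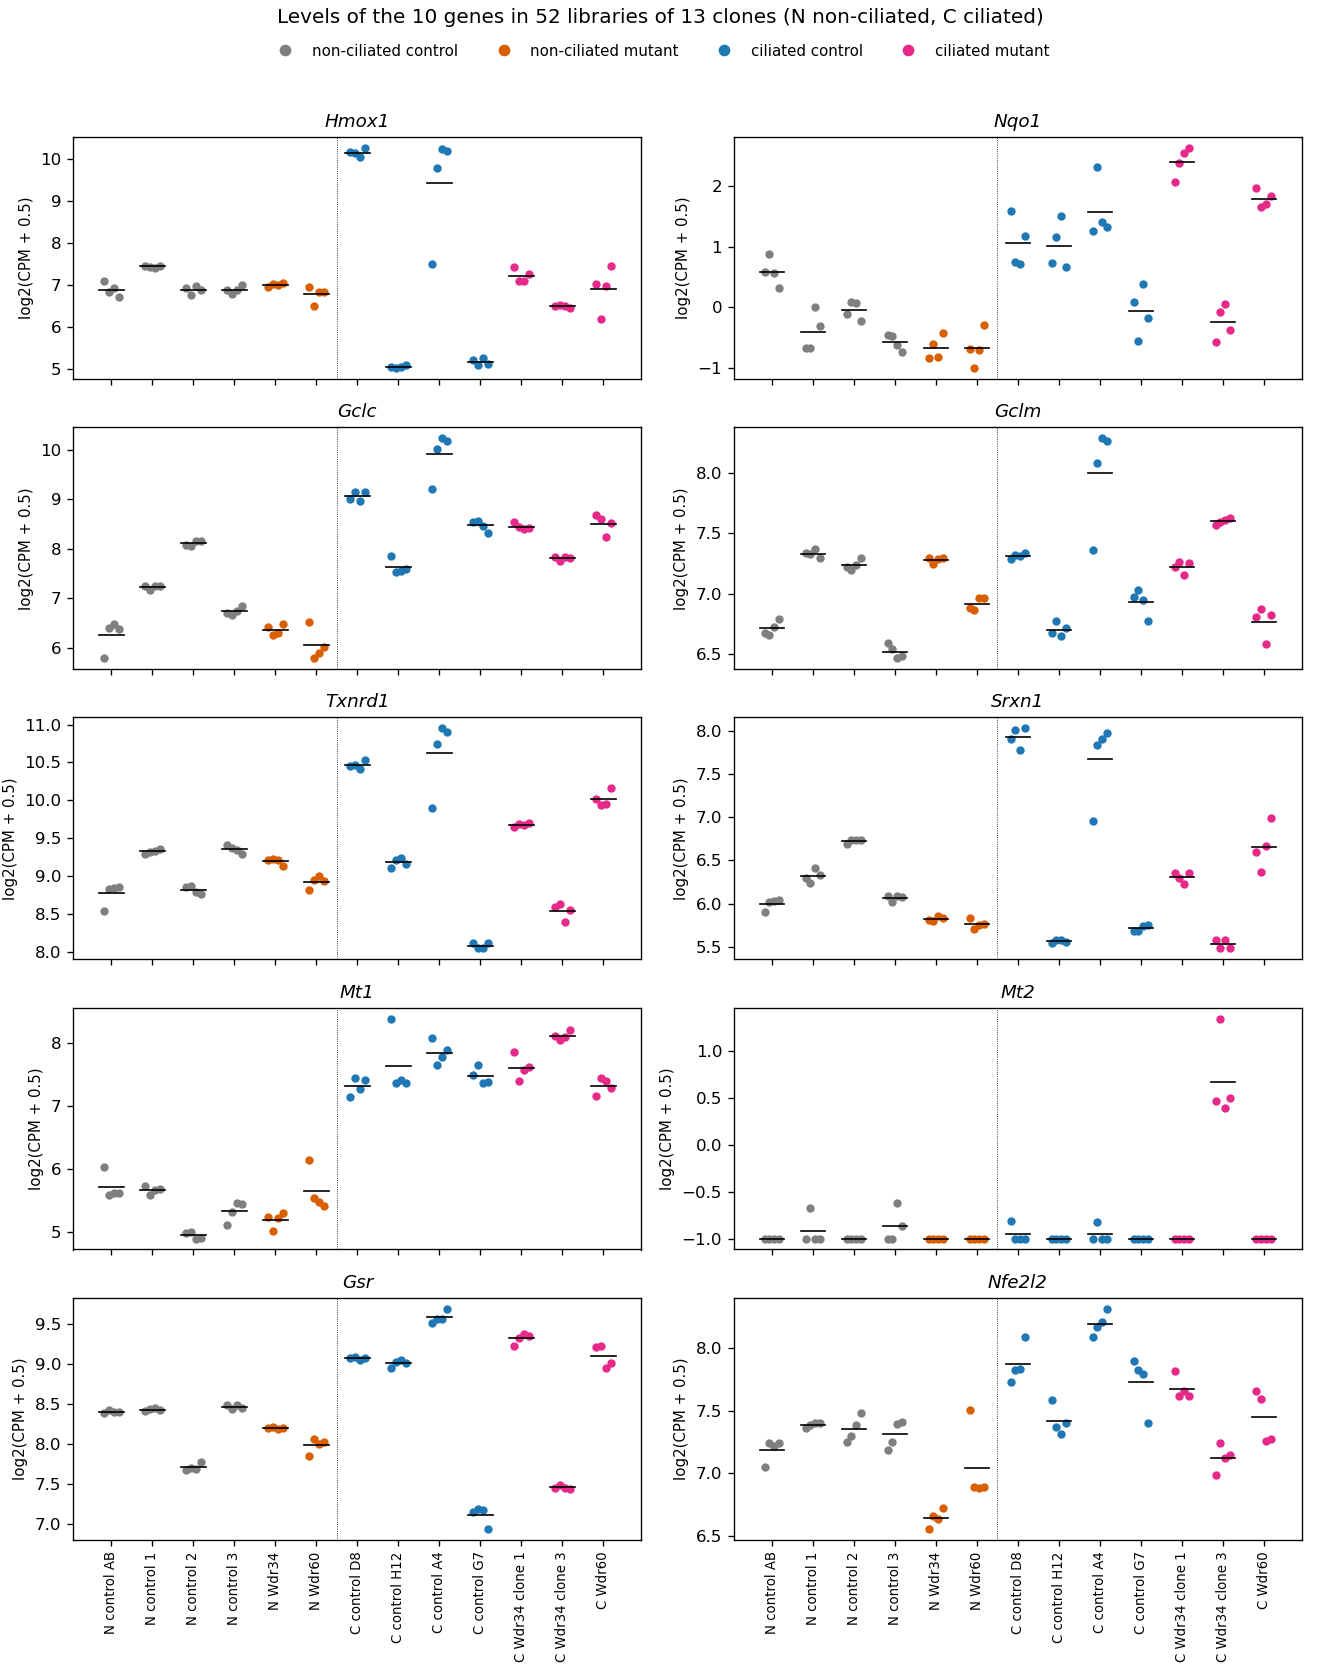
Level of each of the 10 genes in the 52 libraries, as log2(CPM + 0.5), by clone (N, non-ciliated; C, ciliated); points are libraries, short lines are means of the 4 libraries and colours are the 4 groups. Mt1 separates the states completely, Hmox1 spreads most widely among the ciliated control clones, and Mt2 is above the baseline in ciliated Wdr34 clone 3.

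Mt1 was higher in all 7 ciliated clones than in any of the 6 non-ciliated clones, and it was the only one of the 10 genes for which the clone means of the states did not overlap. Among ciliated controls, Mt1 stood at 160 ± 15.1 CPM in D8, 209 ± 84.4 in H12, 232 ± 29.2 in A4 and 178 ± 16.8 in G7. Among non-ciliated controls it stood at 52.5 ± 8.44 in AB, 50.4 ± 2.12 in clone 1, 30.4 ± 1.07 in clone 2 and 39.9 ± 4.41 in clone 3. The lowest ciliated control was thus well above the highest non-ciliated control. Over clone sums, Mt1 was higher in ciliated than in non-ciliated controls by 2.16 ± 0.23 (log2 fold change ± SE, edgeR quasi-likelihood test, adjusted p = 0.000991, where genes under 0.05 are spoken of as called), and the exact 2-sided permutation test over clone means gave p = 0.0286, the smallest that 4 against 4 clones allow. Mutant clones kept to the level of their state, at 197 ± 25.8, 278 ± 12.4 and 160 ± 13.9 CPM in ciliated Wdr34 clone 1, Wdr34 clone 3 and Wdr60, and at 36.3 ± 3.08 and 50.7 ± 13.4 in non-ciliated Wdr34 and Wdr60. The mean of Wdr34 clone 3 was above that of every control. Its lowest library, at 265 CPM, was below the highest of A4 (269) and of H12 (336). Without the 3 libraries that stood apart, and without any single clone, Mt1 remained called in the comparison of states, with log2 fold changes from 2.02 to 2.25 when a clone or a library number was left out.

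Mt2, the neighbour of Mt1, was nearly absent from the same libraries. It had 0 counts in 43 of the 48 libraries outside ciliated Wdr34 clone 3 and at most 3 counts in the others, where 3 counts correspond to 0.107 to 0.202 CPM. In ciliated Wdr34 clone 3, Mt2 had 15, 36, 15 and 20 counts in the 4 libraries, a mean of 1.16 ± 0.59 CPM. All 4 libraries of this clone were above every other library, and it was also the clone with the highest mean of Mt1. The same clone had Dcn, a matrix proteoglycan of fibroblasts, at 29.1 CPM against at most 1.03 in any other clone. The other fibroblast markers, Col1a1, Col1a2, Pdgfra and Pdgfrb, were at 1.17 CPM or below in it. Pdgfra (0.782 CPM), Pdgfrb (0.102) and Col1a2 (0.0284) were nevertheless highest of the ciliated clones in it, and Col1a1 was not. Non-ciliated clones reached 1.14, 0.155 and 0.0470 CPM for Pdgfra, Pdgfrb and Col1a2. Whether these markers move together with Mt2 was not tested. Annotated transcripts of Mt1 and Mt2 share none of their 31-base words (0 of 1273 and 0 of 573), so the counts of one could not come from reads of the other over that length. Mt2 did not pass the expression filter of the clone fit and has no test there.

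**Figure D2:**
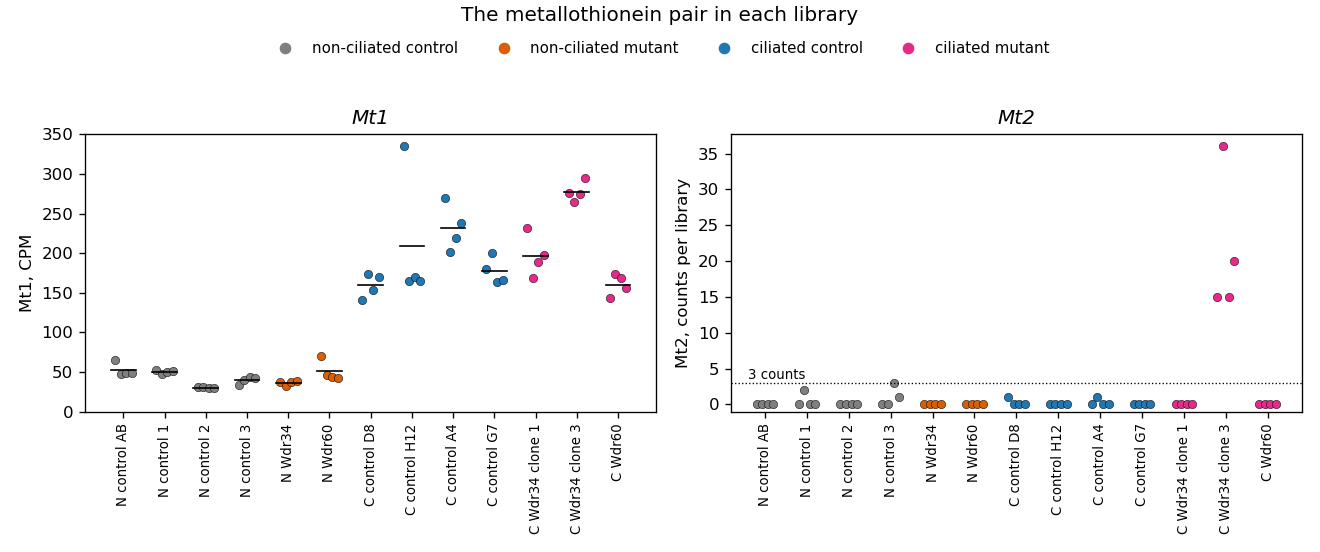
Mt1 in CPM (left; lines are means of 4 libraries) and Mt2 in counts per library (right; dotted line at 3 counts) in the 13 clones. Mt1 stands between 160 and 278 CPM in ciliated clones and between 30.4 and 52.5 in non-ciliated clones, whereas Mt2 exceeds 3 counts in the 4 libraries of ciliated Wdr34 clone 3, with 15 to 36 counts.

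Nfe2l2, encoding Nrf2 itself (chr2:75675513-75704663), ran from 139 to 293 CPM over the ciliated and from 99.6 to 167 CPM over the non-ciliated clones. In ciliated controls it stood at 234 ± 25.5 CPM in D8, 171 ± 14.3 in H12, 293 ± 19.1 in A4 and 214 ± 30.6 in G7, and in non-ciliated controls at 146 ± 9.22 in AB, 167 ± 2.27 in clone 1, 163 ± 11.5 in clone 2 and 159 ± 11.8 in clone 3. Every ciliated control was above every non-ciliated control, though H12 and non-ciliated control 1 were close (171 and 167 CPM). The difference was 0.50 ± 0.18 on the log2 scale and did not pass the test in edgeR (adjusted p = 0.0698; exact permutation p = 0.0286), and the clone means of these groups overlapped without library 1 of each clone, without the 3 libraries that stood apart, and without non-ciliated control AB, non-ciliated control 2 or G7, with TMM scaling computed anew. It passed with DESeq2 (adjusted p = 0.0355), with voomLmFit (adjusted p = 0.0488) and without ciliated control H12 (adjusted p = 0.0416), and leaving out other clones or library numbers gave adjusted p up to 0.192.

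The level of Nfe2l2 in mutants did not pass the test in either state. Non-ciliated Wdr34 and Wdr60 had 99.6 ± 4.64 and 134 ± 31.8 CPM, both below the 4 non-ciliated controls, a log2 fold change of -0.43 ± 0.22 (edgeR, adjusted p = 1; exact permutation p = 0.0667, the smallest for 2 against 4 clones). Library 1 of non-ciliated Wdr60 read 182 CPM and the other 3 libraries 118, so the clone's mean rests in part on the library that stood apart. In ciliated mutants the levels were 204 ± 13.9, 139 ± 10.2 and 175 ± 25.3 CPM in Wdr34 clone 1, Wdr34 clone 3 and Wdr60, which overlapped with the controls, a log2 fold change of -0.39 ± 0.19 (edgeR, adjusted p = 0.9999; unadjusted p = 0.0675).

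Hmox1 (chr8:75093618-75100593), which encodes the inducible haem oxygenase that degrades haem to biliverdin, iron and carbon monoxide, spread more widely among ciliated clones than any other of the genes that passed the filter. Its level was 1146 ± 71.1 CPM in control D8 and 868 ± 480 in control A4, but 32.7 ± 0.67 in control H12 and 35.6 ± 2.01 in control G7. The ciliated mutants lay between these pairs, at 150 ± 16.3 CPM in Wdr34 clone 1, 126 ± 41.9 in Wdr60 and 90.3 ± 1.73 in Wdr34 clone 3. From highest to lowest the ciliated clones covered a 35-fold range. Non-ciliated clones, by contrast, ran from 111 ± 14.5 CPM in Wdr60 to 174 ± 3.17 in control 1, a 1.57-fold range, so that 2 of the ciliated controls were above and 2 below every non-ciliated clone. The libraries of D8 and A4 overlapped, those of Wdr60 overlapped with both Wdr34 clones, and those of G7 and H12 overlapped, whereas no library overlapped between these 3 sets of clones.

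The 4 libraries of control A4 did not share 1 level of Hmox1. Library 1 read 182 CPM and the other libraries 892, 1219 and 1179 CPM. In the same library Gclc was at 591 CPM against a mean of 1128 ± 90.9 in the other 3 libraries, Txnrd1 at 958 against 1864 ± 138, Srxn1 at 124 against 240 ± 11.8 and Gclm at 164 against 297 ± 23.2. Gsr, at 731 against 780 ± 40.9, Nfe2l2, at 272 against 300.0 ± 15.8, and Nqo1, at 1.89 against 1.99 to 4.48, were also lowest in library 1, by less. Mt1 went the other way, at 269 in library 1 against 219 ± 18.5. The SD of A4 carries this spread.

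Because the ciliated controls held both the highest and the lowest clones, comparisons of Hmox1 between groups were imprecise. Between ciliated and non-ciliated controls the fitted log2 fold change was 1.97 ± 0.91 (edgeR, adjusted p = 0.152), although the difference of the mean log2 levels of the clones was 0.43, since the fit follows the high clones. For ciliated mutants against ciliated controls it was -2.09 ± 1.02 (adjusted p = 0.9999), with a difference of mean log2 levels of -0.58 and an exact permutation p = 0.657.

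**Figure D3:**
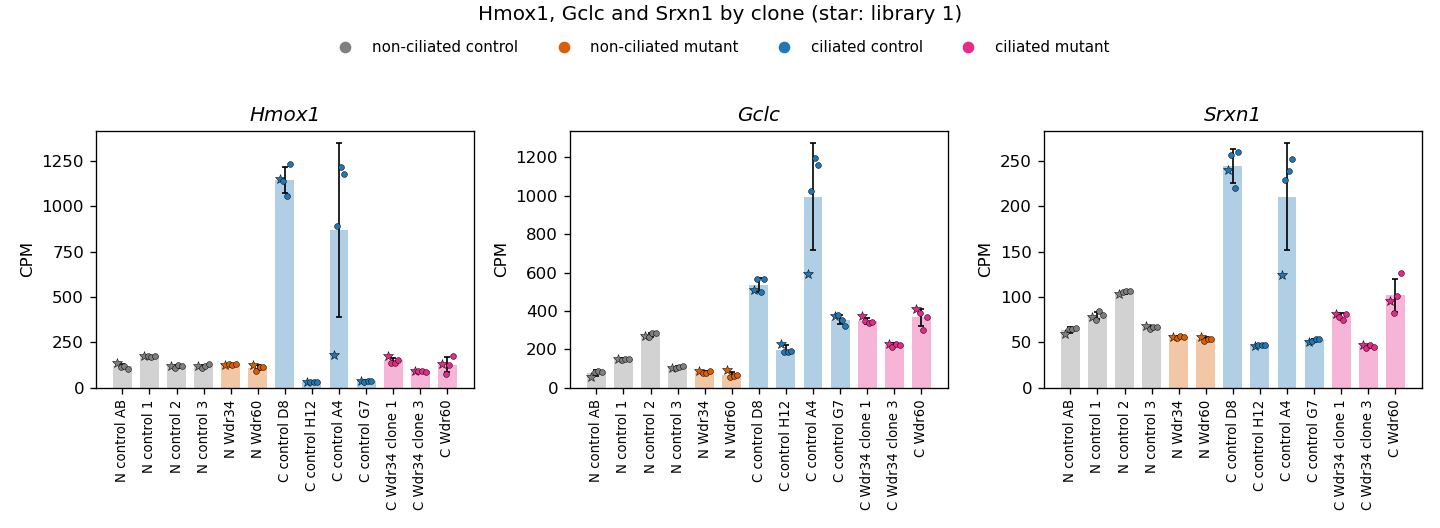
Hmox1, Gclc and Srxn1 in CPM by clone (N, non-ciliated; C, ciliated); bars are means and error bars SD of 4 libraries, points are libraries and stars mark library 1. Ciliated controls D8 and A4 stand highest for all 3 genes, and library 1 of A4 lies below the other 3 libraries of that clone.

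Glutathione synthesis was represented by Gclc (chr9:77754535-77794489) and Gclm (chr3:122245487-122267215), the catalytic and the modifier subunit of glutamate-cysteine ligase, the enzyme of the rate-limiting step. Gclc stood at 536 ± 38.2 CPM in ciliated control D8, 199 ± 21.1 in H12, 994 ± 279 in A4 and 355 ± 25.6 in G7, and at 77.6 ± 15.4, 149 ± 3.73, 276 ± 9.52 and 106 ± 6.32 in non-ciliated controls AB, 1, 2 and 3. The groups overlapped through a single pair of clones, H12 below non-ciliated control 2. Gclc was higher in ciliated than in non-ciliated controls by 1.76 ± 0.49 on the log2 scale (edgeR, adjusted p = 0.0286; exact permutation p = 0.0571). The call rested on several clones: the adjusted p was 0.0684, 0.0793 or 0.0801 without non-ciliated control AB, 1 or 3 and 0.0785 without A4, and the fold change moved from 1.23 without A4 to 2.20 without non-ciliated control 2. Ciliated mutants, at 348 ± 16.4, 224 ± 6.61 and 366 ± 45.3 CPM, lay within the range of their controls, and non-ciliated Wdr34 and Wdr60, at 82.3 ± 5.75 and 67.2 ± 16.1 CPM, were near the lowest control, AB.

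Gclm varied less than Gclc among the clones. Its clone means lay between 104 and 264 CPM in ciliated and between 91.2 and 161 CPM in non-ciliated cells, and the log2 fold change between the control groups was 0.34 ± 0.31 (edgeR, adjusted p = 0.464), which fell to -0.01 without A4. The highest ciliated clone was A4 (264 ± 69.3 CPM) and the next was Wdr34 clone 3 (194 ± 3.27). The 2 subunits were therefore not ordered alike among the clones, as Wdr34 clone 3 was second for Gclm and sixth of 7 for Gclc.

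Gsr (chr8:33653238-33698162), the reductase that regenerates glutathione from its disulfide, and Txnrd1 (chr10:82833951-82897724), the cytosolic thioredoxin reductase, shared their lowest clones in ciliated cells. Gsr stood at 138 ± 10.5 CPM in ciliated control G7 and 175 ± 2.75 in ciliated Wdr34 clone 3, against 516 to 768 CPM in the other 5 ciliated clones. Txnrd1 stood at 271 ± 7.16 and 374 ± 25.5 CPM in the same clones, against 582 ± 22.4 in H12, 816 ± 12.5 in Wdr34 clone 1, 1039 ± 75.4 in Wdr60, 1418 ± 48.9 in D8 and 1637 ± 466 in A4. In non-ciliated cells Gsr was lowest in control 2, at 208 ± 6.76 CPM, against 338 ± 4.47, 344 ± 3.34 and 352 ± 6.42 in controls AB, 1 and 3 and 293 ± 2.0 and 252 ± 15.6 in Wdr34 and Wdr60, whereas Txnrd1 was lowest in control AB, at 439 ± 44.6. Krt8 was low in the 3 clones with the lowest Gsr of their states, and in G7 and non-ciliated control 2 Epcam was low as well, at 13.7 ± 1.39 and 2.89 ± 0.51 CPM, against 286 ± 7.21 in Wdr34 clone 3 and 180 to 836 in the other clones. Krt18 and Cdh1 were also lowest of their states in G7 and non-ciliated control 2, Krt18 at 68.8 and 113 CPM and Cdh1 at 14.7 and 4.27. By contrast, Pax8, Pax2, Cdh16 and Hoxb7 were highest of their states in these clones, Pax8 at 427 and 303 CPM, Pax2 at 315 and 280, Cdh16 at 857 and 269 and Hoxb7 at 84.9 and 55.9. The part of these marker levels in Gsr was not tested. Neither gene passed the test between the control groups, with log2 fold changes of 0.65 ± 0.48 for Gsr and 0.83 ± 0.49 for Txnrd1 (edgeR, adjusted p = 0.362 and 0.255).

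Srxn1 (chr2:152105524-152111376) encodes sulfiredoxin, which restores overoxidised peroxiredoxins. It was highest in ciliated controls D8 and A4, at 244 ± 18.6 and 211 ± 58.7 CPM, and stood at 46.8 ± 0.55 and 52.1 ± 1.41 in H12 and G7. Ciliated Wdr34 clone 1, Wdr34 clone 3 and Wdr60 had 78.9 ± 3.32, 45.7 ± 1.73 and 102 ± 18.7 CPM. In non-ciliated cells Srxn1 stood at 56.1 ± 1.06 and 53.9 ± 1.85 CPM in Wdr34 and Wdr60, below all 4 controls (63.5 ± 2.89, 79.5 ± 3.93, 105 ± 1.71 and 66.7 ± 1.57), a log2 fold change of -0.51 ± 0.62 (edgeR, adjusted p = 1; exact permutation p = 0.133). As with Hmox1, the ciliated controls enclosed the non-ciliated clones from both sides.

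Nqo1 (chr8:107388225-107403205), the quinone reductase often taken as a marker of Nrf2 activity, was barely expressed. Ciliated clones had 1.65 ± 0.64, 1.59 ± 0.59, 2.63 ± 1.24 and 0.48 ± 0.26 CPM in controls D8, H12, A4 and G7 and 4.85 ± 0.87, 0.36 ± 0.17 and 2.97 ± 0.33 in Wdr34 clone 1, Wdr34 clone 3 and Wdr60. Non-ciliated controls had 1.02 ± 0.25, 0.27 ± 0.18, 0.48 ± 0.10 and 0.18 ± 0.06 CPM, and Wdr34 and Wdr60 0.13 ± 0.09 and 0.14 ± 0.13, that is 0 to 5 counts per library. Its highest clone was therefore a mutant, and A4 and D8 did not stand out. Nqo1 was also low in G7 and Wdr34 clone 3, the ciliated clones with the lowest Gsr. Nqo1 did not pass the test between the non-ciliated groups (edgeR, log2 fold change -1.81 ± 1.04, adjusted p = 1).

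On a scale of CPM per kilobase of merged exon, which allows genes to be compared, Gsr had the highest median over clones in both states, at 195 in ciliated and 114 in non-ciliated cells. In ciliated cells Mt1 (158), Txnrd1 (115), Gclc (94.3), Hmox1 (72.0), Nfe2l2 (53.9), Srxn1 (28), Gclm (23.7), Nqo1 (1.06) and Mt2 (0) followed. In non-ciliated cells the order was Txnrd1 (76.0), Hmox1 (67.8), Nfe2l2 (40.1), Mt1 (36.2), Gclc (25.0), Srxn1 (23.1), Gclm (21.5), Nqo1 (0.14) and Mt2 (0). Mt1 and Gclc stood higher in the order of the ciliated clones, and neighbours in the order had overlapping ranges over clones down to Gclm, except that in non-ciliated cells Hmox1 (63.1 to 99.3) did not overlap with Nfe2l2 (26.2 to 44.1).

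Among the clones of 1 state, an edgeR test of libraries by clone set single clones against the spread of technical libraries alone. It called 90.2% of all tested genes among the ciliated and 87.4% among the non-ciliated clones, so nothing is read from its calls of 9 of 9 members in each state. Mt2 is left out of this count, since it passed the filter only in ciliated cells and there through Wdr34 clone 3 alone. In ciliated cells, Mt2 aside, the F value ran from 7.07 for Mt1 (adjusted p = 0.000221) to 372 for Gsr (adjusted p = 8.54e-22). The SD among clones of log2 levels was 1.96 for Hmox1 in ciliated and 0.24 in non-ciliated cells, with an SD among libraries of 0.54 and 0.12. For Mt1, the SD among clones was 0.29 and 0.31, with an SD among libraries of 0.23 and 0.19.

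By genotype, none of the genes passed the test. For ciliated mutants against ciliated controls, edgeR over clone sums called 0 of 9 tested members, with 0 at an unadjusted p under 0.05, where 0% of 13994 genes were called (3 genes by DESeq2 and 9 by voomLmFit). In edgeR, 3 members had an unadjusted p under 0.05 without H12 and 2 without G7, with 0 called. DESeq2 and voomLmFit also called 0 members, with 1 and 0 at an unadjusted p under 0.05. For non-ciliated mutants against controls, edgeR again called 0 members with 0 at an unadjusted p under 0.05, where 0% of genes were called (14 genes by DESeq2 and 7 by voomLmFit). DESeq2 and voomLmFit called 0 members, with 0 and 2 at an unadjusted p under 0.05. When the effect of the mutants was compared between states, edgeR called 0 members with 0 at an unadjusted p under 0.05, where 0% of genes were called, and DESeq2 and voomLmFit called 0 members, with 1 and 0 at an unadjusted p under 0.05. Log2 fold changes were negative for 7 of 9 members in ciliated cells, with a median of -0.39, and for 7 of 9 in non-ciliated cells, with a median of -0.17, beside medians over all genes of 0.0012 and 0.0030. These tallies moved with single clones: without A4, Gclm (0.25) and Gsr (0.19) were positive in ciliated cells, and without non-ciliated control 1, Hmox1 (0.04) and Txnrd1 (0.08) were positive in non-ciliated cells. Shares of all genes with a negative fold change are not given, so nothing is read from the tallies. In ciliated cells, differences of mean log2 levels were -0.55 for Srxn1 (fitted -0.88) and -0.18 for Txnrd1 (fitted -0.40), while for Nfe2l2 both were -0.39.

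The clone means did not overlap between mutants and controls for 0 members in ciliated cells, where 2.19% of genes did so, and for 3 members in non-ciliated cells, Nqo1, Srxn1 and Nfe2l2, all lower in the mutants, where 13% of genes did so. In non-ciliated cells this count was 5 without Wdr34, where Wdr60 alone stood for the mutants and any gene separates more easily. It was 2, Nqo1 no longer among them, without library 2 of each clone. The share of 13% belongs to the full set of clones and libraries, and the shares for these settings are not given. Nothing is therefore read from the change in the count. Nqo1 rests on 9 and 9 counts in the mutants beside 13 in control 3. With libraries taken as samples, 3 members were called in ciliated cells (Hmox1, Srxn1 and Nfe2l2, all lower), where 6.57% of all genes were called, and 3 in non-ciliated cells (Nqo1, Gclc and Nfe2l2, all lower), where 10.5% were called, but libraries of a clone are not independent.

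Between ciliated and non-ciliated controls, 18.4% of 13994 genes were called, 8.98% higher and 9.46% lower. Of the 9 members tested, 2 were called higher (Gclc and Mt1) and 0 lower, and 3 had an unadjusted p under 0.05, the third being Nfe2l2. That unadjusted count moved with single clones in edgeR, to 2 without A4, 5 without H12 and 8 without G7. All 9 fitted log2 fold changes were positive (that of Gclm not without A4), with a median of 0.83 against 0.02 over all genes. The share of all genes with a positive fold change is not given, so nothing is read from the signs. The fit follows the high clones. Differences of the mean log2 levels of the clones were 0.52 for Txnrd1, 0.44 for Srxn1 and 0.45 for Gsr, beside fitted values of 0.83, 0.81 and 0.65. For Mt1 both were 2.16. Clone means did not overlap for 2 members (Mt1 and Nfe2l2), where 21.4% of genes did so. Called in either direction were thus 2 of 9 members, a share near that of all genes.

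**Figure D4:**
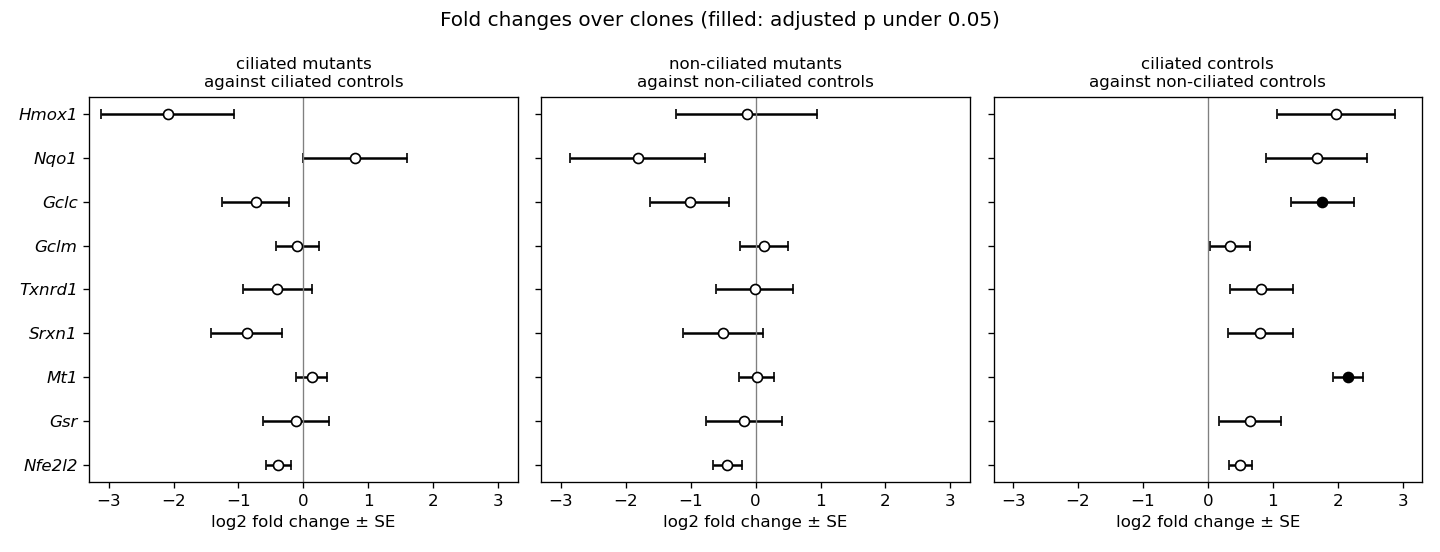
Log2 fold changes ± SE of the 9 genes that passed the filter, over clone sums, for mutants against controls in each state and for ciliated against non-ciliated controls; filled points passed the test. Mt1 and Gclc are filled in the comparison of states, at 2.16 and 1.76, and no gene is filled in the comparisons by genotype.

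The wider pathway was followed through 60 other genes, of which 56 passed the filter. By genotype, 0 of them were called in either state with edgeR, DESeq2 or voomLmFit on clones, and 0 had an unadjusted p under 0.05 in edgeR. The lowest unadjusted p values belonged to Ftl1, the ferritin light chain (log2 fold change -0.82 ± 0.38, edgeR, unadjusted p = 0.0546), and Slc7a11, the cystine importer that feeds glutathione synthesis (-2.19 ± 1.05, unadjusted p = 0.0584), in ciliated cells, and to Keap1 (0.34 ± 0.16, unadjusted p = 0.0516) and the glutathione-degrading enzyme Ggt1 (-3.45 ± 1.68, unadjusted p = 0.0635) in non-ciliated cells. When the effect of the mutants was compared between states, they belonged in edgeR to the biliverdin reductase Blvra (-0.35 ± 0.19, unadjusted p = 0.0966, adjusted p = 0.9999) and to Slc7a11 (-2.61 ± 1.46, unadjusted p = 0.101, adjusted p = 0.9999).

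Between ciliated and non-ciliated controls, 10 of the 56 genes were called higher and 4 lower, where 8.98% and 9.46% of all genes were called. Among those called higher was Mgst1, which passed the filter on low counts only through ciliated clones. In edgeR, 23 of the 56 had an unadjusted p under 0.05. Nothing is read from that count, as the share of all genes at that p is not given. Called higher were Blvrb, a flavin and biliverdin reductase (log2 fold change 1.81 ± 0.28, adjusted p = 0.00285), Sqstm1, the autophagy receptor p62 that binds Keap1 (1.63 ± 0.34, adjusted p = 0.00934), Bach1 (0.84 ± 0.18, adjusted p = 0.00938), the carbonyl reductase Cbr1 (1.21 ± 0.27, adjusted p = 0.0118) and Gpx4, which reduces lipid hydroperoxides (0.56 ± 0.13, adjusted p = 0.0146). Keap1, Mafg, Ftl1 and Slc30a1 were called higher with larger adjusted p. Mgst1 read 0 to 0.0283 CPM in the non-ciliated and 0 to 0.997 in the ciliated clones, so that it was tested only because of the clones where it was higher, and its call is no support. Called lower were Gpx1 (-0.69 ± 0.18, adjusted p = 0.0237) and Prdx6 (-1.28 ± 0.36, adjusted p = 0.0318), both of which reduce peroxides, the zinc importer Slc39a10 (-0.88 ± 0.23, adjusted p = 0.0239) and the glutathione synthetase Gss (-0.52 ± 0.16, adjusted p = 0.0427). Of the 9 genes that control Nrf2, 4 were called higher and 0 lower, while of the 6 that supply NADPH 0 were called (edgeR). With 18.4% of all genes called, nothing is read from either count. The lists are short and were chosen with earlier results of these data known. The count of called genes fell from 14 to 6 without non-ciliated control 1 or 3, to 8 without AB and to 9 without H12 or A4. The share of all genes called fell too, from 18.4% to 8.44% without non-ciliated control 1 and 10.8% without control 3. It was 13.6% without AB, 12.2% without H12 and 13.2% without A4. The 4 genes called lower were reduced to 0 without non-ciliated control 1 or H12 and to 1 without AB or non-ciliated control 3.

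Controls A4 and D8 were examined further after their Hmox1 was seen. Among ciliated clones, A4 was highest for 5 of 9 members and 20 of 56 other pathway genes, where it was highest for 11.1% of all genes, and D8 for 2 of 9 (Hmox1, by which it was chosen, and Srxn1) and 13 of 56, where it was highest for 18% of all genes. A4 was lowest for 0 of the 56, beside 11.9% of all genes, and D8 was lowest for 10 of the 56 and 1 of 9 members, beside 18.8% of all genes. Without its library 1, A4 was highest for 5 of 9 and 22 of 56 genes, beside 14.1% of all genes. The 2 clones were picked from these data, and the gene lists were chosen with earlier results of the data known. These counts are therefore a description only. Slc7a11, Maff and Osgin1 are named after their values were seen. Slc7a11 stood at 206 ± 126 CPM in A4 and 148 ± 12 in D8, against 4.46 to 25.9 in the other ciliated clones and 10.5 to 39.2 in non-ciliated clones. Maff, a small Maf partner of Nrf2, stood at 349 ± 27.4 in D8 and 246 ± 119 in A4, against 37.9 to 101 in the other ciliated clones. Osgin1, an oxidant-induced growth inhibitor, stood at 283 ± 13.7 in D8 but at 142 ± 50.7 in A4, similar to Wdr60 (140 ± 45.9).

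**Figure D5:**
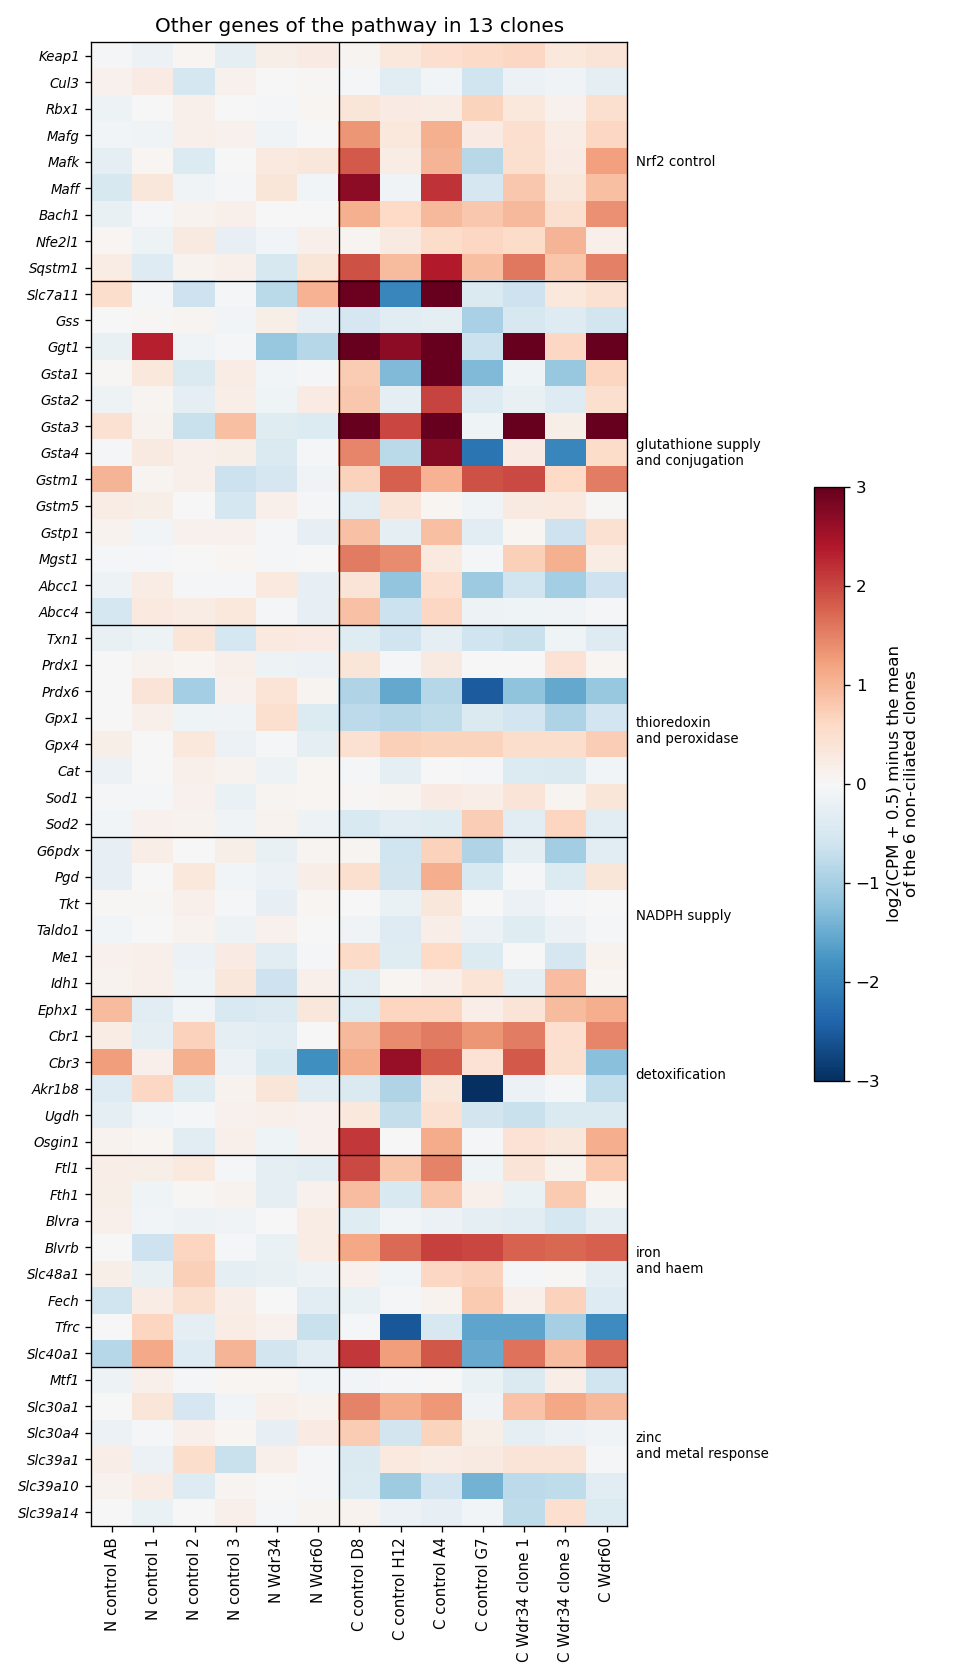
The 56 other pathway genes in 13 clones (N, non-ciliated; C, ciliated), by role; colour is log2(CPM + 0.5) of the clone mean minus the mean of the 6 non-ciliated clones, cut at 3 in either direction. Ciliated controls D8 and A4 are darkest for Maff and Slc7a11, while Blvrb and Bach1 are above and Prdx6 and Gpx1 below the non-ciliated mean in all 7 ciliated clones.

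Across the 7 ciliated clones, log2 levels of Gclc and Nfe2l2 went together with r = 0.91 (rho = 0.86), and r = 0.90 without A4 and H12, but with r = 0.59 (rho = 0.77) over the 6 non-ciliated clones, and 0.33 without controls 2 and 1. Gclc and Srxn1 went together with r = 0.87 (rho = 0.89) in ciliated cells and r = 0.98 (rho = 0.94) in non-ciliated cells, where r was 0.77 without controls 2 and 1. These pairs were picked from 72 computed. By permutation over clones, no pair passed after adjustment over the 72 (lowest adjusted p = 0.104 for r and 0.245 for rho). No correlation is given for Hmox1, whose ciliated clones fall into separate sets. Over all 13 clones, after the mean of each state was subtracted, the gene outside the list most like Gclc was Carhsp1 (r = 0.95), that most like Gclm was Cand1 (0.87), that most like Txnrd1 was Unc5b (0.97), that most like Srxn1 was Gstp1 (0.94), a glutathione transferase of the pathway list, and that most like Gsr was Pdlim7 (0.98). For Nqo1, Mt1 and Nfe2l2 these were Six4 (0.90), Utp11l (0.91) and Itpk1 (0.90). Each of these r values is the highest picked from 13994 genes and is a description only.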

How the data were processed

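RNA of 52 libraries from 13 clones was sequenced in paired ends. The authors aligned the reads to GRCm38/mm10 with Rsubread in R 3.4.4 and assigned them to gene symbols with featureCounts, and the deposited values are raw counts per gene. The strand setting and the treatment of reads that map to several genes are not given in the sources used here. The authors tested with DESeq2 1.18.1. Groups, clones and library numbers were taken from the labels.

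Counts of the 4 libraries of a clone were summed, because the methods call them technical replicates. In R 4.3.3, 13994 genes passed filterByExpr of edgeR 4.0.16 at its defaults and were scaled by TMM. They were tested with glmQLFit and glmQLFTest in 1 fit of 13 clones with 4 groups. The fit took the 13 as independent and had no term for a clone grown in both states. This limits the comparison of states and that of the mutant effect between states. Benjamini-Hochberg adjustment ran over all genes tested, and genes with an adjusted p under 0.05 are spoken of as called. Differences among clones of 1 state were tested on libraries with an edgeR F test. Exact 2-sided permutation tests compared clone means of log2(CPM + 0.5). P-values over clones measure the spread between clones only, whereas those of the F test rest on the spread of technical libraries alone. Alternatives were DESeq2 1.42.0, voomLmFit with limma 3.58.1 and the clone as a random block, libraries as samples, a replicate block, RLE scaling, other filters, each state alone and leaving out each clone or library number. The procedure was also run on simulated data with planted changes. How many of these it recovered is not given here, so a lack of calls by genotype does not show a lack of change. Totals of 14816218 to 28084979 counts (median 17414011.5) set the precision of counts, and the limit of 3 counts for Mt2 covers counting error only.

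The genes, the 60 other pathway genes and the markers were chosen with earlier results of these data known. Text names all 10 genes, called pathway genes (up to 5 per direction by adjusted p, or the 2 of lowest p where none was called) and the gene most like each, except Hmox1, whose ciliated clones fall into separate sets. Clones were compared to each other as 4 against 4, 3 against 4 and 2 against 4. Loci and promoters are from RefSeq, GRCm38.p6, and exon lengths from GENCODE.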

Additional observations from a re-analysis of the deposited data

Results flagged for a closer look

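In groups of 4, a value was singled out where its gap to the nearest other value, over the range of the group, exceeded Dixon's 95% critical value, which chance gives in about 1 of 20 groups. Of 118 combinations of gene and clone, 12 held such a library, and of 18 combinations of gene and control group, 2 held such a clone.

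Several of these values came from the libraries that stood apart in non-ciliated control AB and non-ciliated Wdr60, both numbered 1. None came from library 1 of ciliated control A4, which also stood apart. In non-ciliated control AB, library 1 read 54.8 CPM for Gclc (83.1 to 88.5 in the others), 373 for Txnrd1 (456 to 466), 65.1 for Mt1 (47.6 to 48.7) and 132 for Nfe2l2 (148 to 151). In non-ciliated Wdr60, library 1 read 70.6 CPM for Mt1 (42.0 to 46.2) and 182 for Nfe2l2 (118 in the others).

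The other libraries singled out were not among the 3 that stood apart. Nqo1 read 4.48 CPM in library 2 of ciliated control A4, against 1.89 to 2.16 in the others. Mt1 read 336 CPM in library 1 of ciliated control H12, against 165 to 170 in the others. Mt2 read 2.04 CPM in library 2 of ciliated Wdr34 clone 3, against 0.81 to 0.91. Gsr read 122 CPM in library 4 of ciliated control G7 (141 to 144), Gclc 144 in library 2 of non-ciliated control 1 (151 in the others) and Txnrd1 565 in library 4 of non-ciliated Wdr34 (596 to 599).

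Among clone means of the non-ciliated controls, Hmox1 of control 1 stood at 174 CPM, against 118 to 119 in the others, and Gsr of control 2 at 208 CPM, against 338 to 352.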

How the results depend on the processing

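Of 254 recomputed counts 226 stayed within 1.5 times the main count, and of 891 recomputed fold changes 827 kept their direction and side of the threshold, while 32 changed direction, 28 passed the threshold only in the alternative and 4 no longer passed. The 3 libraries that stood apart, and G7 with non-ciliated control 2, were left out as alternatives chosen after seeing the data.

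With 52 libraries as samples, 3, 3 and 9 members were called for ciliated mutants, non-ciliated mutants and the states, and 8, 4 and 36 other pathway genes, beside 6.57%, 10.5% and 61.9% of all genes. With the replicate block, these were 3, 2 and 9 members and 5, 2 and 36 other genes, beside 5.19%, 9.1% and 60.8% of all genes. The labels give the library numbers no shared batch, and they were taken as names only: deviations of same-numbered libraries of different clones had a median r of -0.0047 over 312 pairs (-0.54 to 0.69, 48 over 0.1), and 10 of 52 libraries correlated best with their own number. However, the 3 libraries that stood apart all carry number 1. In each Mt1 was the highest of its clone, at 269 CPM in A4, 65.1 in non-ciliated control AB and 70.6 in non-ciliated Wdr60. Library 1 of ciliated control H12, which did not stand apart, also had the highest Mt1 of its clone, at 336 CPM against 165 to 170. What these libraries share beyond the number was not tested. With a log2 fold change of at least 1 required, 7 other pathway genes were called between states. Leaving out a clone or a library number gave 1 to 3 members and 6 to 17 other pathway genes called between states. Over these settings 8.44% to 22% of all genes were called between states. Members that did not overlap numbered 1 to 3 between states, 0 to 1 in ciliated and 2 to 5 in non-ciliated mutants. The 5 came with 1 mutant clone left, and shares of all genes that did not overlap are not given for these settings. By genotype, 0 members were called where at least 2 clones of each group remained. Without the 3 libraries, 1 member did not overlap between states (Mt1).

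The log2 fold changes that changed direction had not passed the test. That of Mt1 in non-ciliated mutants was -0.0007 with the replicate block, -0.0077 with voomLmFit, -0.0714 without the 3 libraries and -0.2412 to 0.2354 when a clone or library number was left out. When these were left out, ciliated mutants gave -0.3235 to 0.2464 for Gclm, -0.1160 to 0.3024 for Mt1 and -0.4473 to 0.2767 for Gsr. Non-ciliated mutants gave -0.2559 to 0.0395 for Hmox1, -0.0636 to 0.3079 for Gclm and -0.1598 to 0.1195 for Txnrd1. The states gave -0.0133 to 0.4924 for Gclm. The effect of the mutants compared between states gave -0.1558 to 0.8176 for Gclc, -0.4491 to 0.1204 for Gclm, -0.6464 to 0.0630 for Srxn1, -0.1220 to 0.3710 for Mt1, -0.2652 to 0.4592 for Gsr and -0.1425 to 0.2670 for Nfe2l2. Other changes of direction within these ranges were, for ciliated mutants, Gclm 0.0970 without Wdr60 and Gsr 0.1944 without A4. For non-ciliated mutants they were Txnrd1 0.0833 and 0.0814 without controls 1 and 3 and Mt1 -0.1233 and -0.0172 without controls 2 and 3, and Mt1 ran from -0.0840 to 0.0417 over the library numbers left out. For the effect compared between states they were Mt1 -0.1055 without non-ciliated Wdr34, Gsr -0.0456, -0.0027, -0.0046, -0.0746 and -0.2398 without non-ciliated Wdr60, non-ciliated controls 1 and 3, ciliated Wdr60 and G7, and Nfe2l2 -0.0872 and -0.0542 without ciliated Wdr34 clone 1 and H12. The causes were not tested. Depth limits Nqo1 and Mt2, and 2 to 4 clones in a group limit every comparison by genotype.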
